A study of Homo sapiens with 12 samples.

Results

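The nuclear-encoded subunits of the respiratory chain and ATP synthase were followed in HL60, a human acute myeloid leukaemia line, after induction of a mutant of the transcription factor TFEB. Members were the protein-coding genes whose symbol follows the naming of the subunits of complexes I to V and whose mean value over the 12 libraries was at least 10. This gave 77 members among 57820 genes in the table, of which 23128 had a mean of at least 10 and were tested. Complex I contributed 37 members (7 core and 30 accessory subunits), complex II 4, complex III 8, complex IV 13 and complex V 15. A further 12 protein-coding rows with matching names lay under a mean of 10, and 2 of these were at 0 in every library. At the edge of this threshold COX4I2 averaged 9.50, COX7A1 8.84 and COX7B2 7.59 just outside it, while COX6B2 averaged 11.6, COX6A1P2 19.1 and NDUFA7 19.1 just inside.

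There were 4 groups of 3 libraries, prepared from biologically independent experiments per the series description. TFEB-Dox cells were transduced with pRRL-TFEBS211A-puro and received doxycycline (1 µg/ml, 48 h). TFEB-Veh cells carried the same vector and received vehicle. EV-Dox cells were transduced with the empty vector pRRL-EV-puro and received the same dose of doxycycline, and EV-Veh cells carried that vector with vehicle. The vector's name gives TFEBS211A, a form in which a serine through which TFEB is held in the cytoplasm is replaced; TFEB drives lysosomal and autophagy genes. The labels do not say whether a transduced line was 1 clone or a pool, and the treatment field lists doxycycline for the vehicle samples too, so the titles decided which samples were vehicle. The medium, RPMI-1640 plus fetal bovine serum, was common to all.

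Complexes I and II pass electrons from NADH and succinate to ubiquinone, complex III passes them on to cytochrome c, and complex IV delivers them to oxygen. Complexes I, III and IV pump protons, and complex V uses the gradient to make ATP. All subunits of complex II are nuclear-encoded, whereas the other complexes combine nuclear-encoded subunits with a few made inside the mitochondrion. Acute myeloid leukaemia cells are known to rely on oxidative phosphorylation.

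Recovered reads ranged from 13931354 to 20267420 in TFEB-Dox, 7769481 to 13933397 in TFEB-Veh, 4474007 to 11681639 in EV-Dox and 10709170 to 22488047 in EV-Veh. TFEB itself lay between 14470 and 22629 normalized reads in TFEB-Dox and between 79.8 and 196 in the other 9 libraries. Mitochondrially encoded genes took 16.0 ± 2.38% of the reads in TFEB-Dox, 26.6 ± 2.82% in TFEB-Veh, 30.4 ± 3.70% in EV-Dox and 23.8 ± 2.77% in EV-Veh (SD, n = 3 each). The 6 myeloid markers fixed for the labelled cells summed to 10158 to 14620 in TFEB-Dox, 48856 to 95048 in TFEB-Veh, 5076 to 30071 in EV-Dox and 65453 to 215880 in EV-Veh. On every scaling 3 of the 6 were lower in TFEB-Dox than in TFEB-Veh, and 5 of the 6 were lower in EV-Dox than in EV-Veh. Between TFEB-Dox and EV-Dox 0 were called on every scaling. There 2 were higher and 0 lower on the deposited scale, and 1 higher and 4 lower with the expressed-gene scaling described below. The part of these marker differences in the results below was not tested, and in bulk samples fewer cells of a type and less RNA per cell cannot be told apart.

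The deposited values are read numbers divided by 1 factor per library, here called normalized reads on the deposited scale. On this scale the expressed genes as a whole sat at different levels in different libraries. The median log2 difference between TFEB-Dox and TFEB-Veh was 0.73 over 7290 nuclear genes averaging 200 or more (the expressed nuclear genes), against -0.002 over all 23128 genes tested. Each difference is therefore also given with expressed-gene scaling. It divides each library by the median, over genes, of its reads relative to the gene's geometric mean over the libraries. The genes used were those of the 7290 that had reads in every library. This multiplied the libraries by 0.452 to 3.20 and moved the 2 medians to -0.02 and -0.72. A lower value of a gene with few reads on this scaling sits with that shift of all genes. Calls made on 5 scalings alike (deposited, TMM, equal totals, equal upper quartiles and expressed-gene) are named as such.

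Promoter sequence was looked up for the members because TFEB binds the E-box CACGTG, and NRF1 and the ETS factor GABPA are known regulators of respiratory genes. Of the 77 members, 63 matched the RefSeq promoter table of build GRCh38.p14, with 76 windows of 300 bases, running from 250 bases before to 50 bases after a gene's start. CACGTG was found, on either strand, in 7 members (ATP5F1, ATP5G1, ATP5I, NDUFA11, NDUFA7, NDUFS7 and UQCR11) and in 9.21% of their windows, against 7.26% of all 35116 windows. The longer palindrome TCACGTGA, which contains CACGTG, occurred in ATP5I among the members and in 0.98% of all windows. The NRF1 motif (GCGC, any 2 bases, GCGC) occurred in 16 members and 21.1% of their windows, against 8.32% of all windows. CCGGAAG, an ETS motif, occurred in 20 members and 27.6% of their windows, against 10.3% of all. A match describes letters in these windows and not a bound site.

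The 4 windows below are those of the subunits with the widest contrast in complex II, the core subunit of complex I with the largest rise, and the member that held TCACGTGA. They are written 5′ to 3′ on the gene's strand, with matches to CACGTG, TCACGTGA, the NRF1 motif or CCGGAAG, or their reverse complements, in capitals.
SDHB: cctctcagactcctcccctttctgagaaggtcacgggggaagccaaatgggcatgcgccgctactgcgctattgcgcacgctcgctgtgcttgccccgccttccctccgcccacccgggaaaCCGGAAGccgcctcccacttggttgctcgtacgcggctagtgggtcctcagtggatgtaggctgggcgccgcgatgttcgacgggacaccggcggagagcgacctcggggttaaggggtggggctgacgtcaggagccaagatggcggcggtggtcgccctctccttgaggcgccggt
SDHA: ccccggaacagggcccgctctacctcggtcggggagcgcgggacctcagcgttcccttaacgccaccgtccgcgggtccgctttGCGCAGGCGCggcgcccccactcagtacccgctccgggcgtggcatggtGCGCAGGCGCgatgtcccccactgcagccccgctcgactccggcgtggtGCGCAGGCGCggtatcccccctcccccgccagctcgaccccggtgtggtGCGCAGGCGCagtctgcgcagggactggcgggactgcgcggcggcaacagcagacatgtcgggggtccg
NDUFS8: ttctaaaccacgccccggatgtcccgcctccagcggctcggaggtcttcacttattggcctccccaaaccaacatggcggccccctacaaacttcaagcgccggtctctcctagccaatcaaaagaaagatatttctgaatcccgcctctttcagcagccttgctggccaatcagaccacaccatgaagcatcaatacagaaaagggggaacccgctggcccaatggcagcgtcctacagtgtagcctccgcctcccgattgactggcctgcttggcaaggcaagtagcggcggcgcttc
ATP5I: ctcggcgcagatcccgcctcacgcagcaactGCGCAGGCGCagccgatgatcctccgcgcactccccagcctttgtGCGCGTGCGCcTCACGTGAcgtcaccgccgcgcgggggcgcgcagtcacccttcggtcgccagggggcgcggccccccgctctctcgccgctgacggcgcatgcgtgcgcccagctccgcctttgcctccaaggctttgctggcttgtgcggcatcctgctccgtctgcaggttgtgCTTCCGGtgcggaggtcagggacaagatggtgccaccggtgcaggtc
The SDHB window lies at chr1:17053983-17054282 on the minus strand and held CCGGAAG from 128 to 122 bases before the start. The SDHA window lies at chr5:218070-218369 on the plus strand and held 4 copies of GCGCAGGCGC. The NDUFS8 window lies at chr11:68030431-68030730 on the plus strand and held none of the 4 motifs. The ATP5I window (now named ATP5ME) lies at chr4:674227-674526 on the minus strand and held TCACGTGA from 163 to 156 bases before the start, the NRF1 motif at 2 places and the reverse complement of CCGGAAG at bases 3 to 9 after it. SDHB and NDUFS8, whose values rose most among the core and catalytic subunits, held no CACGTG in these windows. Sequence outside the promoter windows was not searched, so a missing match does not show that TFEB does not bind near a gene. Whether TFEB acts on SDHB or NDUFS8 directly was not tested.

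On the deposited scale, induction of the TFEB mutant came with higher values of some subunits in all 5 complexes, by amounts that differed widely within each complex. Members with a mean of at least 200 were not called higher there more often than expressed nuclear genes. In TFEB-Dox against TFEB-Veh, limma called 24 of the 77 members higher and 0 lower at an adjusted p under 0.05 on the deposited scale, with 38 higher and 0 lower at an unadjusted p under 0.05, and edgeR also called 0 lower. Over all genes tested limma called 17.4% higher and 4.66% lower by adjusted p. By edgeR 24 members were higher, and of 23128 genes 4171 were higher and 1072 lower. The share of all genes at an unadjusted p under 0.05 is not given here, nor for the comparisons below. The higher calls fell on 12 members of complex I, 2 of complex II, 2 of complex III, 4 of complex IV and 4 of complex V. Among members with a mean of at least 200, 17 of 61 (27.9%) were called higher, close to the 31.5% of expressed nuclear genes, of which 3.51% were lower. The count moved to 10 without TFEB-Dox replicate 2, 15 without TFEB-Dox replicate 3, 10 without TFEB-Veh replicate 1 and 38 without EV-Dox replicate 3.

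With expressed-gene scaling 27 members were called higher and 7 lower, against 34.4% higher and 33.2% lower among expressed nuclear genes and 14.4% and 20.7% of all genes tested. Without TFEB-Dox replicate 3 the higher calls numbered 17, and without TFEB-Veh replicate 2 the lower calls numbered 4. Among the 61 members with a mean of at least 200 these were 23 (37.7%) and 7 (11.5%), so the share called lower was under that of expressed genes. The 7 lower members were NDUFB5, NDUFB10, NDUFV1, NDUFV3, SDHA, ATP5D and ATP5G1. On all 5 scalings 16 members were called higher and 0 lower: NDUFA1, NDUFA8, NDUFA11, NDUFB4, NDUFB8, NDUFB9, NDUFC1, NDUFS8, SDHB, UQCRFS1, UQCRQ, COX7A2, COX7A2L, ATP5E, ATP5H and ATP5L. By that rule 21.3% of the 61 members were called higher, against 28.0% higher and 2.59% lower among expressed nuclear genes and 12.2% and 3.57% of all genes tested. The calls of 5 members (NDUFB9, NDUFS8, SDHB, UQCRQ and COX7A2L) held on the deposited scale and with expressed-gene scaling whichever library was left out. How many other genes held in this way is not given here, so the count does not set the members apart.

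**Figure D1:**
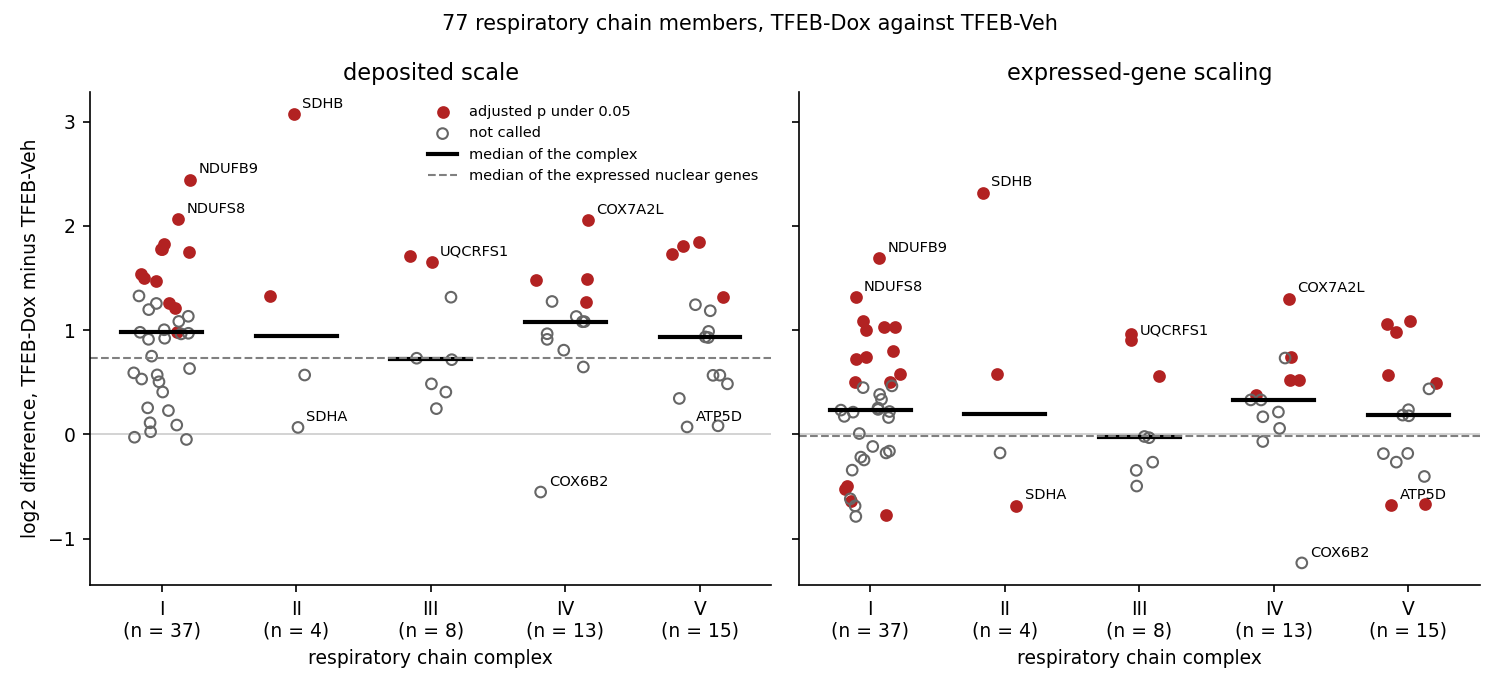
Log2 difference between TFEB-Dox and TFEB-Veh for each of the 77 members, 1 point per member, by complex, on the deposited scale (left) and with expressed-gene scaling (right). Filled points passed limma at an adjusted p under 0.05, black lines mark the median of a complex and the dashed line the median of 7290 expressed nuclear genes; SDHB stands at the top of both panels, at 3.07 and 2.32.

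The complexes' medians lay close together. On the deposited scale the median log2 difference was 0.98 for complex I, 0.95 for complex II, 0.72 for complex III, 1.08 for complex IV and 0.94 for complex V, against 0.73 for expressed genes. With expressed-gene scaling the medians were 0.23, 0.20, -0.025, 0.33 and 0.19, in the same order of complexes. Within complexes the spread was wider, from -0.68 (SDHA) to 2.32 (SDHB) in complex II and from -0.79 (NDUFV2) to 1.69 (NDUFB9) in complex I with that scaling.

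Against EV-Dox the rise covered most of the chain on the deposited scale alone, where most expressed nuclear genes were also called higher. The EV-Dox group includes the shallowest library. limma called 64 of 77 members higher and 0 lower on the deposited scale, where 27.2% of all genes were higher and 5.37% lower, and none was lower at an unadjusted p under 0.05 or by edgeR. By edgeR 59 members were higher, and of 23128 genes 6049 were higher and 1275 lower. Among the 61 members with a mean of at least 200, 53 (86.9%) were higher, above the 55.8% of expressed nuclear genes, of which 0.686% were lower and whose median difference was 1.38 against 1.77 for the members. Without TFEB-Dox replicate 2 the count of 64 was 40. With expressed-gene scaling 34 members were higher and 7 lower, against 36.4% and 35.4% of expressed nuclear genes (14.2% and 57.6% of all genes tested). On all 5 scalings 33 were higher and 0 lower. That was 30 of the 61 (49.2%), against 33.9% higher and 0.453% lower among expressed nuclear genes and 13.3% and 4.01% of all genes tested. Without TFEB-Dox replicate 1 the 7 lower calls were 4.

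Against EV-Veh, the deepest control group, fewer members stood out on the deposited scale. limma called 7 higher and 0 lower (13 and 0 at an unadjusted p under 0.05, and 7 and 0 adjusted by edgeR), against 12.2% and 8.51% of all genes tested and 17.6% and 9.99% of expressed nuclear genes. These shares are by limma and adjusted p, and edgeR called 2817 of 23128 genes higher and 2245 lower. The 7 members called by limma were NDUFA8, NDUFA11, NDUFB8, NDUFB9, NDUFS8, SDHB and ATP5E, and these same 7 were called higher against each of the 3 control groups, where the 3 comparisons share the TFEB-Dox libraries and 10.7% of all genes tested were called higher and 1.35% lower (17.4% and 0.535% of expressed nuclear genes). In both counts 1 member was called without TFEB-Dox replicate 2 or EV-Veh replicate 1, 2 without EV-Veh replicate 3, 3 without TFEB-Dox replicate 3, 13 without EV-Dox replicate 3 and 14 without EV-Veh replicate 2. With expressed-gene scaling 27 members were higher than in EV-Veh and 6 lower, where 34.6% and 33.3% of expressed nuclear genes (15.9% and 16.2% of all genes tested) were. Against each control 22 were higher and 2 lower (NDUFV3 and SDHA), beside 29.5% and 27.1% of expressed nuclear genes (11.6% and 13.8% of all genes tested). Without TFEB-Veh replicate 1 the 22 were 14. On all 5 scalings 2 members, NDUFS8 and SDHB, were called higher than in EV-Veh and against each control. By that rule 14.9% of expressed nuclear genes were higher and 9.96% lower than in EV-Veh (8.82% and 6.9% of all genes tested), and 14.3% and 0.343% against each control (6.62% and 0.791% of all genes tested).

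Counted by library with expressed-gene scaling, the 3 TFEB-Dox libraries lay above all 9 others for 25 of the 77 members (32.5%) and below them for 5 (6.49%). The same held for 12.5% and 17.7% of all genes tested, and for 31.1% and 29.0% of expressed nuclear genes. The 5 members below were NDUFV2, NDUFV3, SDHA, UQCR11 and ATP5G3. NDUFV2 and UQCR11 average under 200 normalized reads, where the median of all genes tested also drops on this scaling.

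Among the core subunits of complex I, NDUFS8 and NDUFS7 rose with the TFEB mutant and the flavin-binding subunit did not. NDUFS8, which carries iron-sulfur clusters on the path to ubiquinone, had 3499.8, 5447 and 3474 normalized reads in TFEB-Dox, against 657, 1169 and 1171 in TFEB-Veh, 688, 454 and 299.6 in EV-Dox and 1062, 2144 and 876 in EV-Veh. The 3 TFEB-Dox libraries lay above the other 9 without overlap. Its log2 difference was 2.07 ± 0.53 (SE; limma, adjusted p = 0.00293) against TFEB-Veh, 3.15 (adjusted p = 6.8e-06) against EV-Dox and 1.68 (adjusted p = 0.0172) against EV-Veh. With expressed-gene scaling these were 1.32, 1.78 and 1.60. The call against EV-Veh on the deposited scale was lost without TFEB-Dox replicate 2 (1.47), EV-Veh replicate 1 (1.56) or EV-Veh replicate 3 (1.42).

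NDUFS7, which holds the iron-sulfur cluster nearest to ubiquinone, had 815, 1033 and 742 normalized reads in TFEB-Dox, 266, 425 and 404 in TFEB-Veh, 299.7, 245 and 112 in EV-Dox and 467, 854 and 333 in EV-Veh. TFEB-Dox lay above TFEB-Veh and EV-Dox but reached into the range of EV-Veh. The difference against TFEB-Veh was 1.26 ± 0.47 (SE; limma, adjusted p = 0.0494) and 0.51 with expressed-gene scaling (adjusted p = 0.00445). The deposited-scale call lay at the threshold and was lost without any 1 of 8 libraries: each of the 3 of TFEB-Dox (1.12 to 1.36), each of the 3 of TFEB-Veh (1.04 to 1.38), EV-Dox replicate 2 (1.26) and EV-Veh replicate 1 (1.26).

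NDUFV1, which binds NADH and the flavin where electrons enter, had 746, 1018 and 815 normalized reads in TFEB-Dox, 455, 888 and 951 in TFEB-Veh, 588, 429 and 167 in EV-Dox and 1044, 2088 and 922 in EV-Veh. TFEB-Dox overlapped TFEB-Veh on the deposited scale, where the difference was 0.23 ± 0.52 (SE; limma, adjusted p = 0.798). With expressed-gene scaling TFEB-Dox lay below TFEB-Veh and EV-Veh without overlap, and the difference against TFEB-Veh was -0.52 ± 0.13 (adjusted p = 0.00342). NDUFV2, its iron-sulfur partner, had 52.4, 76.4 and 57.5 in TFEB-Dox, 60.3, 63.5 and 66.6 in TFEB-Veh, 82.4, 58.7 and 49.3 in EV-Dox and 51.5, 141 and 79.4 in EV-Veh. The groups overlapped on the deposited scale, where the difference against TFEB-Veh was -0.05 and did not pass the test (limma, adjusted p = 0.936). With expressed-gene scaling all 3 TFEB-Dox libraries lay below the other 9, and the difference of -0.79 did not pass either (adjusted p = 0.0776).

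NDUFS1 and NDUFS3 did not pass the test against TFEB-Veh on either scale. NDUFS1, the largest subunit of the NADH-oxidizing module, had 1109, 2215 and 1532 normalized reads in TFEB-Dox and 501, 924 and 1004 in TFEB-Veh, and the 6 empty-vector libraries lay between 268 and 1999. NDUFS3, of the module that reduces ubiquinone, had 486, 497 and 379 in TFEB-Dox and 203, 468 and 319 in TFEB-Veh, with the empty-vector libraries between 63.7 and 932. TFEB-Dox lay above TFEB-Veh for NDUFS1 and overlapped it for NDUFS3. The differences were 1.00 and 0.53 on the deposited scale (limma, adjusted p = 0.172 and 0.493) and 0.25 and -0.22 with expressed-gene scaling (adjusted p = 0.186 and 0.399).

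Of the 30 accessory subunits of complex I, 10 were called higher than in TFEB-Veh on the deposited scale, 10 higher and 3 lower with expressed-gene scaling, and 7 higher on all 5 scalings. On the deposited scale 31.5% of expressed nuclear genes were higher (17.4% of all genes tested). With expressed-gene scaling 34.4% were higher and 33.2% lower (14.4% and 20.7%), and on all 5 scalings 28.0% were higher (12.2%). NDUFB9, a small LYR-motif protein of the membrane arm, had the largest difference of the 30. It had 2041, 5625 and 4391 normalized reads in TFEB-Dox, against 334, 707 and 1325 in TFEB-Veh, 475, 315 and 184 in EV-Dox and 819.5, 1672 and 1026 in EV-Veh. All 3 TFEB-Dox libraries lay above the other 9, although they spread over a wider range than those of NDUFS8. The difference was 2.44 ± 0.55 (SE; limma, adjusted p = 0.000714) against TFEB-Veh, 3.61 against EV-Dox and 1.72 against EV-Veh, and 1.69, 2.23 and 1.63 with expressed-gene scaling.

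NDUFA8, a cysteine-rich subunit that faces the intermembrane space, had 123, 319.6 and 254 normalized reads in TFEB-Dox, 37.4, 63.5 and 90.4 in TFEB-Veh, 54.3, 34.4 and 32.3 in EV-Dox and 73.8, 118 and 102 in EV-Veh. On the deposited scale TFEB-Dox lay above all other libraries, by 1.83 ± 0.36 against TFEB-Veh (SE; limma, adjusted p = 0.000107). With expressed-gene scaling the difference was 1.08, TFEB-Dox overlapped both empty-vector groups, and the call was lost without TFEB-Dox replicate 2 (0.95), TFEB-Dox replicate 3 (0.91), TFEB-Veh replicate 1 (0.99) or TFEB-Veh replicate 2 (1.01). The other members called higher on all 5 scalings were the membrane-arm subunits NDUFA1 (1.78), NDUFA11 (1.54), NDUFB4 (1.50), NDUFB8 (1.77) and NDUFC1 (1.75, all log2 on the deposited scale against TFEB-Veh). NDUFA1 averaged 1592 ± 336 normalized reads in TFEB-Dox, against 488 ± 196 in TFEB-Veh (SD, n = 3 each). NDUFC1 averaged 650.1 ± 178 in TFEB-Dox and 193 ± 63.7 in TFEB-Veh. The NDUFA1 call on the deposited scale was lost without TFEB-Dox replicate 2 (1.63) or TFEB-Veh replicate 1 (1.39), and that of NDUFB4 without TFEB-Dox replicate 2 (1.29), TFEB-Dox replicate 3 (1.60), TFEB-Veh replicate 1 (1.19) or TFEB-Veh replicate 3 (1.58). With expressed-gene scaling the NDUFC1 call was lost without TFEB-Dox replicate 1 (0.74) or TFEB-Veh replicate 3 (0.79), that of NDUFA11 without TFEB-Dox replicate 1 (0.68) or TFEB-Veh replicate 2 (0.71), and that of NDUFB8 without TFEB-Dox replicate 2 (1.06), TFEB-Dox replicate 3 (0.84), TFEB-Veh replicate 1 (0.98) or TFEB-Veh replicate 2 (0.91).

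The 3 accessory subunits called lower with expressed-gene scaling were NDUFV3, NDUFB10 and NDUFB5. NDUFV3, a peripheral subunit of the NADH-oxidizing module beside NDUFV1 and NDUFV2, had 223, 359 and 262 normalized reads in TFEB-Dox, 189.9, 302 and 386 in TFEB-Veh, 299, 215 and 137 in EV-Dox and 416, 776 and 361 in EV-Veh. These ranges overlapped on the deposited scale, at -0.03 ± 0.44 against TFEB-Veh (SE; limma, adjusted p = 0.975). With expressed-gene scaling all 3 TFEB-Dox libraries lay below the other 9 and the difference was -0.77 ± 0.15 (adjusted p = 0.000623). NDUFB10, another cysteine-rich intermembrane-space subunit, was at -0.64 (adjusted p = 0.00163) and NDUFB5 of the membrane arm at -0.49 (adjusted p = 0.0234) with that scaling, against 0.11 and 0.26 on the deposited scale. The NDUFB5 call was lost without TFEB-Dox replicate 1 (-0.40), TFEB-Dox replicate 2 (-0.46), TFEB-Veh replicate 2 (-0.51) or TFEB-Veh replicate 3 (-0.45). NDUFA4, named as a complex I subunit and since assigned to complex IV, averaged 902 ± 251 in TFEB-Dox and 388 ± 149 in TFEB-Veh (SD, n = 3 each), a difference of 1.26 that did not pass the test (limma, adjusted p = 0.0557). With expressed-gene scaling it was called higher, by 0.51 (adjusted p = 0.0214), a call that was lost without TFEB-Dox replicate 2 (0.51), TFEB-Dox replicate 3 (0.34), TFEB-Veh replicate 1 (0.40) or TFEB-Veh replicate 2 (0.50).

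Complex II showed the sharpest contrast between partners in 1 enzyme. SDHB, the iron-sulfur subunit of succinate dehydrogenase, had 2732, 4109 and 3135 normalized reads in TFEB-Dox, against 230.1, 480.4 and 535 in TFEB-Veh, 278, 216 and 83.4 in EV-Dox and 485, 950.1 and 472 in EV-Veh. The lowest TFEB-Dox library was far above the highest of the other 9. Against TFEB-Veh the difference was 3.07 on the deposited scale and 2.32 ± 0.14 with expressed-gene scaling (SE; limma, adjusted p = 1.48e-09); against EV-Dox it was 4.25 on the deposited scale and 2.88 with that scaling, and against EV-Veh 2.44 (adjusted p = 0.000253) and 2.36.

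SDHA, the flavoprotein that oxidizes succinate and binds SDHB, had 644, 921 and 720.4 normalized reads in TFEB-Dox, 476, 881 and 886 in TFEB-Veh, 605, 446 and 312 in EV-Dox and 933, 1805 and 861 in EV-Veh. On the deposited scale TFEB-Dox overlapped TFEB-Veh and EV-Veh, and the difference against TFEB-Veh was 0.07 ± 0.49 (SE; limma, adjusted p = 0.94). With expressed-gene scaling the TFEB-Dox values were 502, 507 and 531, against 762, 863 and 851 in TFEB-Veh, 671, 698 and 998 in EV-Dox and 779, 817 and 864 in EV-Veh. There all 3 TFEB-Dox libraries lay below the other 9, by -0.68 ± 0.14 against TFEB-Veh (SE; limma, adjusted p = 0.000976), -0.60 against EV-Dox and -0.67 against EV-Veh.

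The membrane anchors stood between them. SDHC had 492, 610 and 453 normalized reads in TFEB-Dox, 155, 272 and 203 in TFEB-Veh, 258, 197 and 73.5 in EV-Dox and 287, 582 and 175 in EV-Veh, and TFEB-Dox lay above TFEB-Veh and EV-Dox but overlapped EV-Veh. Its difference against TFEB-Veh was 1.32 ± 0.46 (SE; limma, adjusted p = 0.0334) and 0.58 with expressed-gene scaling. On the deposited scale that call was lost without any 1 TFEB-Dox library (1.20 to 1.42), TFEB-Veh replicate 1 (1.13) or TFEB-Veh replicate 3 (1.32), and with expressed-gene scaling without TFEB-Dox replicate 1 (0.51) or TFEB-Veh replicate 3 (0.44). SDHD had 275, 283 and 254 in TFEB-Dox, 124, 278 and 174 in TFEB-Veh, 172, 177 and 40.4 in EV-Dox and 365, 619 and 189 in EV-Veh. SDHD overlapped TFEB-Veh and its differences of 0.57 and, with expressed-gene scaling, -0.18 did not pass the test.

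The make-up of the complex II transcripts within a library does not depend on the scaling. SDHB made up 68.0 ± 1.83% of the reads of the 4 subunits in TFEB-Dox, 26.1 ± 3.32% in TFEB-Veh, 19.5 ± 2.68% in EV-Dox and 25.1 ± 2.38% in EV-Veh (SD, n = 3 each). SDHA made up 15.6 ± 0.138% in TFEB-Dox, 47.9 ± 1.64% in TFEB-Veh, 50.1 ± 9.75% in EV-Dox and 47.2 ± 3.12% in EV-Veh. The 3 TFEB-Dox libraries stood apart from the other 9 on both, with SDHB as the most abundant read source in place of SDHA. These are shares of reads and not per length, so they do not give the ratio of the transcripts.

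**Figure D2:**
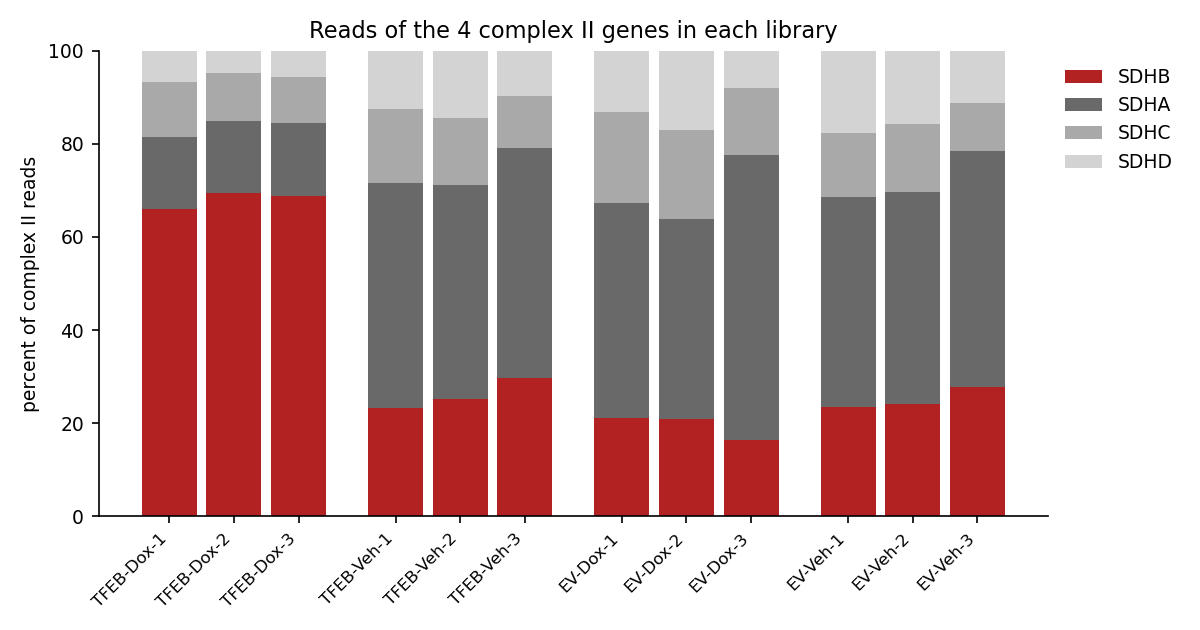
Percent of the reads of the 4 complex II subunits that fell on SDHB, SDHA, SDHC and SDHD, as stacked bars, in each of the 12 libraries. In the 3 TFEB-Dox libraries SDHB takes most of the bar (mean 68.0%), while in the other groups SDHA takes the largest part.

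Complex III had 2 members called higher than in TFEB-Veh on the deposited scale and on all 5 scalings, UQCRQ and UQCRFS1, while its core proteins and hinge protein did not pass there. The same 2 calls were made for 31.5% and 28.0% of expressed nuclear genes (17.4% and 12.2% of all genes tested). UQCRQ, a small subunit next to cytochrome b, had 459, 691 and 527 normalized reads in TFEB-Dox, 102, 211.3 and 219 in TFEB-Veh, 148, 83.9 and 44.8 in EV-Dox and 233, 429 and 202 in EV-Veh. TFEB-Dox lay above the other 9 libraries. The difference was 1.71 ± 0.44 against TFEB-Veh (SE; limma, adjusted p = 0.00281) and 2.73 against EV-Dox, or 0.96 and 1.36 with expressed-gene scaling. UQCRFS1, the Rieske iron-sulfur protein, had 923, 1521 and 1350.3 in TFEB-Dox, 226, 477 and 562 in TFEB-Veh, 510.3, 377 and 159 in EV-Dox and 471, 1014 and 478 in EV-Veh. TFEB-Dox overlapped EV-Veh alone. Its difference against TFEB-Veh was 1.65 ± 0.51 (SE; limma, adjusted p = 0.0139) and 0.90 with expressed-gene scaling, and the deposited-scale call was lost without TFEB-Dox replicate 2 (1.50), TFEB-Dox replicate 3 (1.59) or TFEB-Veh replicate 1 (1.26).

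The core proteins of complex III parted. UQCRC1 had 1870.4, 2579 and 1748 normalized reads in TFEB-Dox, 567, 933 and 1031 in TFEB-Veh, 771, 466 and 198 in EV-Dox and 1154, 2285 and 910.5 in EV-Veh. UQCRC2 had 2391, 2593 and 2187 in TFEB-Dox, 1167, 2182 and 1940 in TFEB-Veh, 1404, 1058 and 443 in EV-Dox and 2597, 4667 and 1784 in EV-Veh. For both, TFEB-Dox lay above TFEB-Veh and EV-Dox and overlapped EV-Veh on the deposited scale. Against TFEB-Veh neither passed there, at 1.32 for UQCRC1 (limma, adjusted p = 0.0738) and 0.49 for UQCRC2 (adjusted p = 0.583). With expressed-gene scaling UQCRC1 was higher by 0.57 ± 0.12 (SE; adjusted p = 0.00154) and UQCRC2 was at -0.27 ± 0.13 (adjusted p = 0.115). UQCRH, the hinge protein between cytochromes c1 and c, averaged 1972 ± 517 in TFEB-Dox and 1586 ± 745 in TFEB-Veh (SD, n = 3 each) and was at 0.41 on the deposited scale and -0.34 with expressed-gene scaling.

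In complex IV, the clearest rise was that of COX7A2L, which bridges complexes III and IV in supercomplexes. COX7A2L had 6360.5, 6318 and 5099 normalized reads in TFEB-Dox, 1182, 1868 and 1297 in TFEB-Veh, 1418, 887 and 380.3 in EV-Dox and 2052, 4033 and 1143 in EV-Veh. The TFEB-Dox libraries lay above the other 9. The difference was 2.05 ± 0.57 against TFEB-Veh (SE; limma, adjusted p = 0.00605), 2.91 against EV-Dox and 1.48 against EV-Veh, where it did not pass (adjusted p = 0.0587), and 1.30, 1.54 and 1.39 with expressed-gene scaling. Its paralog COX7A2, the widely expressed form of subunit VIIa, had 844, 1789 and 1534 in TFEB-Dox, 240.2, 597 and 727 in TFEB-Veh, 388, 338 and 188 in EV-Dox and 639, 1016 and 584 in EV-Veh. COX7A2 overlapped EV-Veh, and its difference against TFEB-Veh was 1.49 ± 0.50 (SE; limma, adjusted p = 0.0274) and 0.74 with expressed-gene scaling. Both COX7A2 calls were lost without TFEB-Dox replicate 2 (1.27 on the deposited scale and 0.67 with expressed-gene scaling), TFEB-Dox replicate 3 (1.38 and 0.57) or TFEB-Veh replicate 1 (1.01 and 0.50). The muscle paralog COX7A1 lay between 2.98 and 17.6 in all 12 libraries and was not tested.

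COX4I1, COX5A and COX5B of complex IV did not pass against TFEB-Veh on the deposited scale. COX4I1, the regulatory subunit IV, had 1802, 2293 and 1806 normalized reads in TFEB-Dox and 589, 1106 and 1206 in TFEB-Veh, with the 6 empty-vector libraries between 233 and 2199. COX5A had 2879.5, 3946 and 2874 in TFEB-Dox and 933, 1971 and 1687 in TFEB-Veh, with the empty-vector libraries between 289.7 and 4168. COX5B, a zinc-binding subunit, had 1632, 2392 and 1969 in TFEB-Dox and 542, 1204 and 1242 in TFEB-Veh, with the empty-vector libraries between 365 and 2133. All 3 lay above TFEB-Veh and EV-Dox in each TFEB-Dox library and overlapped EV-Veh. Against TFEB-Veh COX4I1 was at 1.08, COX5A at 1.13 and COX5B at 1.08 (limma, adjusted p = 0.155, 0.157 and 0.144). With expressed-gene scaling COX5A was called higher, by 0.38 (adjusted p = 0.0392), a call lost without any 1 TFEB-Dox library (0.36 to 0.40), TFEB-Veh replicate 1 (0.30), TFEB-Veh replicate 3 (0.36) or EV-Veh replicate 1 (0.38). Against EV-Dox all 3 were called higher on each of the 5 scalings, at 2.04, 2.33 and 1.89 on the deposited scale and 0.66, 0.95 and 0.52 with expressed-gene scaling. The paralog COX4I2, an oxygen-responsive form, lay between 4.19 and 13.99 in all 12 libraries and was not tested.

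COX6A1, COX6B1 and COX8A, the widely expressed forms of 3 further complex IV subunits, were measured beside their tissue-restricted forms. COX6A1 had 101, 162 and 117 normalized reads in TFEB-Dox and 44.7, 66.7 and 94.4 in TFEB-Veh, with the empty-vector libraries between 20.6 and 151, while the heart form COX6A2 lay between 1.17 and 9.87 in all libraries. COX6B1 had 2572, 3076 and 2318 in TFEB-Dox and 958, 1915 and 1340 in TFEB-Veh, with the empty-vector libraries between 244 and 3795. The testis form COX6B2 had 10.5, 11.8 and 7.34 in TFEB-Dox, 14.6, 12.9 and 16.9 in TFEB-Veh, 21.2, 6.71 and 11.7 in EV-Dox and 8.20, 4.96 and 12.6 in EV-Veh, and its difference of -0.55 against TFEB-Veh on the deposited scale did not pass the test (limma, adjusted p = 0.439). COX8A had 223, 434 and 325 in TFEB-Dox and 101, 125 and 112 in TFEB-Veh, with the empty-vector libraries between 20.6 and 343, and COX8C lay between 0.849 and 10.9. COX8A was higher than in TFEB-Veh by 1.48 ± 0.45 (SE; limma, adjusted p = 0.0139) on the deposited scale, and by 0.73 with expressed-gene scaling, where it did not pass (adjusted p = 0.055). The deposited-scale call of COX8A was lost without TFEB-Dox replicate 2 (1.25) or TFEB-Veh replicate 1 (1.41). COX6A1 and COX6B1 did not pass against TFEB-Veh on either scale.

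In complex V, ATP5E, ATP5H, ATP5I and ATP5L rose against TFEB-Veh and the alpha and beta subunits did not pass the test. ATP5H, subunit d of the peripheral stalk, had 2503, 3274 and 2488 normalized reads in TFEB-Dox, 549, 909 and 886 in TFEB-Veh, 749, 599 and 226 in EV-Dox and 1034, 2055 and 724 in EV-Veh. ATP5L, subunit g at the dimer interface, had 9171, 10272 and 8956 in TFEB-Dox, 1931, 3670.1 and 3247 in TFEB-Veh, 3524, 1768 and 726 in EV-Dox and 3545, 6151 and 1734 in EV-Veh. ATP5E, the epsilon subunit of the central stalk, had 884, 2791 and 2085 in TFEB-Dox, 281, 475 and 889 in TFEB-Veh, 397, 312 and 229 in EV-Dox and 481, 891 and 603 in EV-Veh. TFEB-Dox lay above the other 9 libraries for ATP5H and ATP5L, and overlapped TFEB-Veh and EV-Veh for ATP5E, whose TFEB-Dox replicate 1 was low. Against TFEB-Veh the differences were 1.84 ± 0.53 for ATP5H (SE; limma, adjusted p = 0.00915), 1.73 for ATP5L (adjusted p = 0.0309) and 1.81 for ATP5E (adjusted p = 0.00762), or 1.09, 0.98 and 1.06 with expressed-gene scaling. The deposited-scale calls of ATP5H and ATP5E were lost without TFEB-Dox replicate 2 (1.71 and 1.46) or TFEB-Veh replicate 1 (1.61 and 1.41), and that of ATP5L without any 1 library of TFEB-Dox (1.67 to 1.77) or TFEB-Veh (1.45 to 1.92). With expressed-gene scaling the ATP5E call was lost without TFEB-Dox replicate 2 or 3 (0.87 each), TFEB-Veh replicate 1 (0.90) or TFEB-Veh replicate 2 (0.92). ATP5I, subunit e beside ATP5L and the member with TCACGTGA in its promoter window, had 754, 1024 and 775 normalized reads in TFEB-Dox and 255, 400.1 and 378 in TFEB-Veh. It was higher by 1.32 (limma, adjusted p = 0.0473) and 0.57 with expressed-gene scaling, and the deposited-scale call was lost without any 1 TFEB-Dox library (1.18 to 1.40), any 1 TFEB-Veh library (1.11 to 1.44), EV-Dox replicate 2 or EV-Veh replicate 1 (1.32 each).

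The alpha and beta subunits, ATP5A1 and ATP5B, were among the members with the most reads. ATP5A1 had 7271, 12666 and 10674 normalized reads in TFEB-Dox, 2904, 6476 and 6692 in TFEB-Veh, 4142, 3096 and 1297 in EV-Dox and 6966, 13484 and 6149 in EV-Veh. ATP5B had 3886, 5967 and 4689 in TFEB-Dox, 1949.7, 4388 and 3908 in TFEB-Veh, 2799, 2057 and 612 in EV-Dox and 4904, 9478 and 3679 in EV-Veh. Against TFEB-Veh neither passed, at 0.99 and 0.57 on the deposited scale (limma, adjusted p = 0.249 and 0.546) and 0.24 and -0.18 with expressed-gene scaling. Both were higher than in EV-Dox on the deposited scale, by 1.96 and 1.65, and with expressed-gene scaling ATP5A1 was higher by 0.58 (adjusted p = 0.00634) and ATP5B was at 0.27 (adjusted p = 0.165). The deposited-scale call of ATP5A1 was lost without TFEB-Dox replicate 2 (1.79), and that of ATP5B without EV-Dox replicate 3 (0.99), TFEB-Dox replicate 2 (1.49) or TFEB-Dox replicate 3 (1.66).

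ATP5D, the delta subunit of the central stalk and the partner of ATP5E there, was called lower with expressed-gene scaling. ATP5D had 736, 1657 and 1089.8 normalized reads in TFEB-Dox, 606, 1351 and 1395 in TFEB-Veh, 630, 359 and 97.8 in EV-Dox and 1230.4, 2661 and 1216 in EV-Veh. It differed by 0.07 ± 0.57 from TFEB-Veh on the deposited scale (SE; limma, adjusted p = 0.944) and by -0.68 with expressed-gene scaling (adjusted p = 0.0369), where TFEB-Dox lay below TFEB-Veh and EV-Veh without overlap. That call was lost without TFEB-Dox replicate 1 (-0.48), TFEB-Dox replicate 3 (-0.73), TFEB-Veh replicate 2 (-0.61) or TFEB-Veh replicate 3 (-0.60).

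ATP5G1, ATP5G2 and ATP5G3 encode the same mature c subunit of the rotor ring. ATP5G1 had 442, 625 and 407 normalized reads in TFEB-Dox, 258, 655 and 559 in TFEB-Veh, 259, 227 and 71.8 in EV-Dox and 568, 1185 and 544 in EV-Veh. ATP5G2 had 1618, 2023 and 1546 in TFEB-Dox and 826, 1723 and 1295 in TFEB-Veh, with the empty-vector libraries between 188 and 3437. ATP5G3 had 264, 426 and 302 in TFEB-Dox and 164, 318 and 316 in TFEB-Veh, with the empty-vector libraries between 124 and 667. All 3 overlapped TFEB-Veh on the deposited scale, and none passed there, at 0.08, 0.49 and 0.35. With expressed-gene scaling ATP5G1 was lower than in TFEB-Veh (-0.67 ± 0.18, SE; limma, adjusted p = 0.00718), while ATP5G2 was at -0.27 (adjusted p = 0.353) and ATP5G3 at -0.40 (adjusted p = 0.0671). The ATP5G1 call was lost without TFEB-Veh replicate 2 (-0.52).

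**Figure D3:**
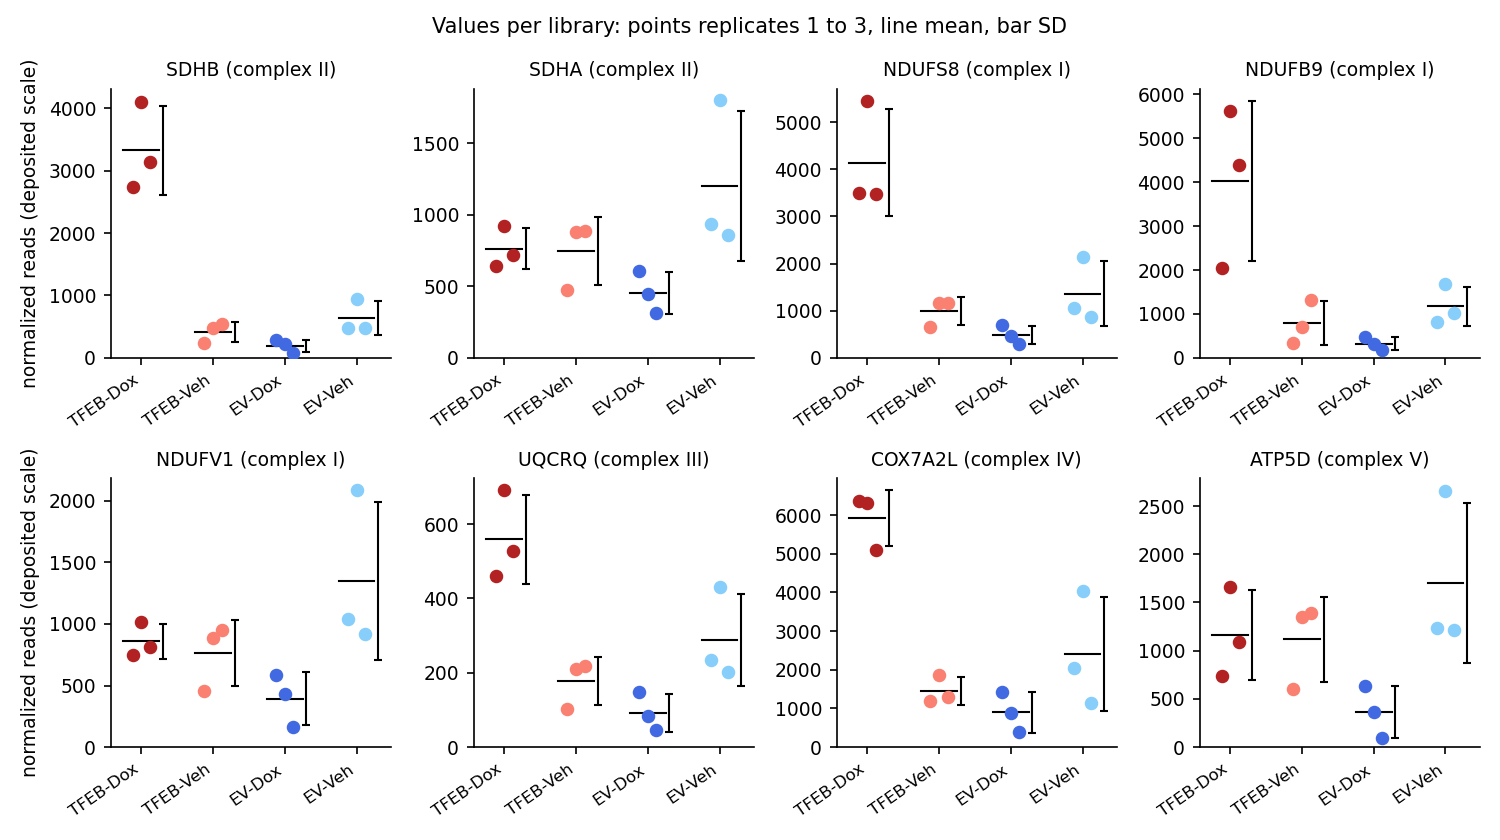
Normalized reads on the deposited scale in each library for SDHB, SDHA, NDUFS8, NDUFB9, NDUFV1, UQCRQ, COX7A2L and ATP5D, 1 panel per gene and 3 points per group, with a line at the mean and bars of 1 SD. For SDHB, NDUFS8, NDUFB9, UQCRQ and COX7A2L the TFEB-Dox points lie above all others, while for SDHA, NDUFV1 and ATP5D they overlap those of TFEB-Veh and EV-Veh.

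Summed over its subunits, each complex was also expressed as a share of the reads on expressed nuclear genes, which does not depend on the scaling of a library. Per 1000000 such reads, complex II took 340.3, 332 and 349 in TFEB-Dox, against 223, 247 and 230 in TFEB-Veh, 202, 246 and 261 in EV-Dox and 230, 239 and 239 in EV-Veh. The TFEB-Dox libraries lay above the other 9. Without SDHB the remainder of complex II took 109 ± 7.15 in TFEB-Dox, against 172 ± 12.04 in TFEB-Veh, 191 ± 29.4 in EV-Dox and 177 ± 4.30 in EV-Veh (SD, n = 3 each).

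On the same scale, complex III took 765, 722 and 797 in TFEB-Dox, against 898, 952 and 1019.7 in TFEB-Veh, 905, 906 and 1073 in EV-Dox and 938, 928 and 945 in EV-Veh. Here the TFEB-Dox libraries lay below the other 9. Within complex III, UQCRC2 took 170 ± 25.6 in TFEB-Dox and 265 ± 17.3 in TFEB-Veh, and UQCRH 137 ± 21.3 in TFEB-Dox and 230 ± 56.2 in TFEB-Veh (SD, n = 3 each).

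The shares of the remaining complexes differed less. Complex I took 2280 ± 128 in TFEB-Dox, 2212 ± 161 in TFEB-Veh, 2172 ± 233 in EV-Dox and 2182 ± 68.9 in EV-Veh. Complex IV took 1413 ± 98.8 in TFEB-Dox, 1237 ± 84.5 in TFEB-Veh, 1135 ± 36.2 in EV-Dox and 1207 ± 75.3 in EV-Veh. Complex V took 2985 ± 182 in TFEB-Dox, 3114 ± 258 in TFEB-Veh, 2764 ± 150 in EV-Dox and 3000 ± 107 in EV-Veh (SD, n = 3 each). All 77 members together took 7780 ± 331 in TFEB-Dox, 7753 ± 459 in TFEB-Veh, 7269 ± 226 in EV-Dox and 7562 ± 154 in EV-Veh.

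The ratio of TFEB-Dox to TFEB-Veh mean shares was 1.03 for complex I, 1.46 for complex II, 0.796 for complex III, 1.14 for complex IV and 0.959 for complex V. Taken gene by gene, the same ratio had a median of 0.756 over expressed nuclear genes. A complex's ratio is one of sums, weighted to the members with most reads, so these measures are unlike. The median log2 difference of complex III members was 0.72 on the deposited scale and -0.025 with expressed-gene scaling. Expressed nuclear genes were at 0.73 and -0.02, so complex III members did not lie above them gene by gene.

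**Figure D4:**
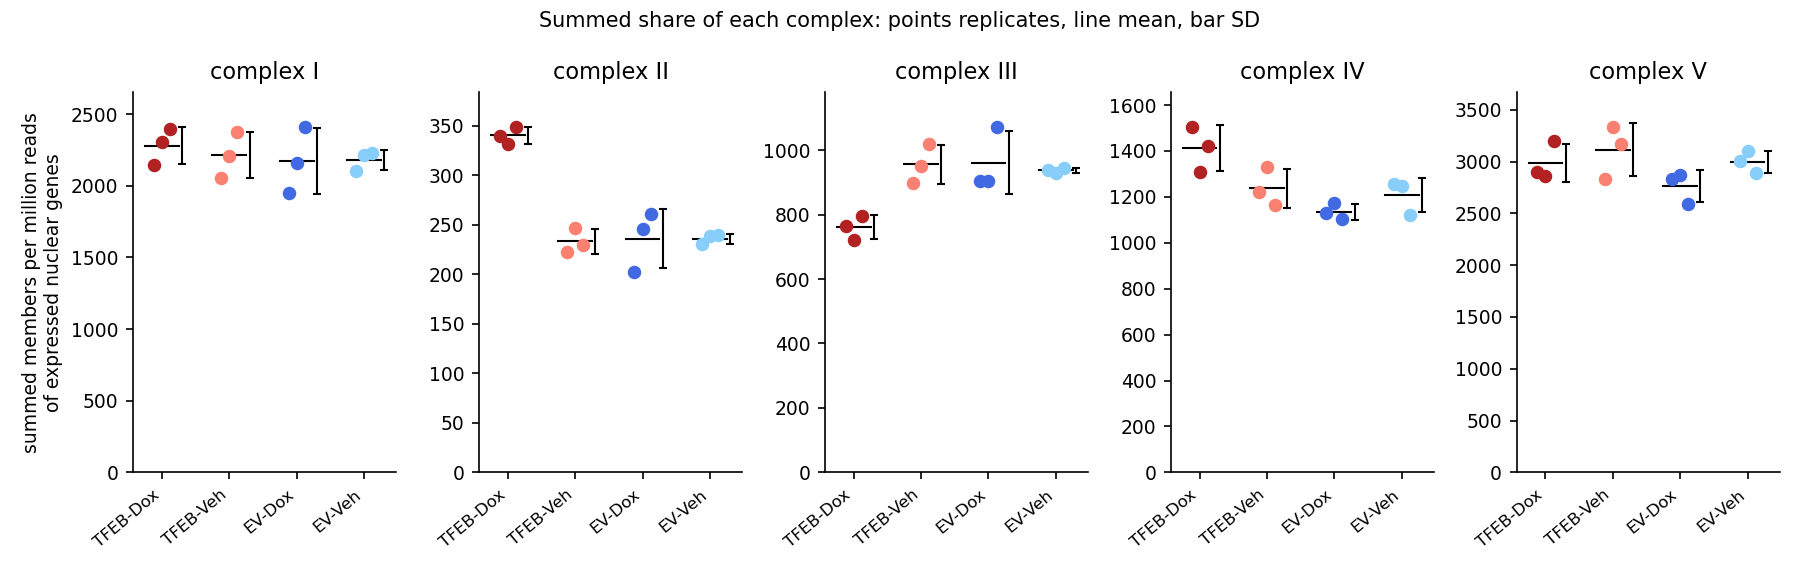
Reads on the members of each complex per 1000000 reads on expressed nuclear genes, 1 panel per complex and 3 points per group, with a line at the mean and bars of 1 SD. The TFEB-Dox libraries lie above the other 9 in complex II and below them in complex III.

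Doxycycline without the TFEB vector came with lower values of most members on the deposited scale. In EV-Dox against EV-Veh limma called 0 members higher and 53 lower, with 0 and 65 at an unadjusted p under 0.05 and 0 and 55 by edgeR adjusted, where 3.39% of all genes tested were higher and 23.3% lower. These shares are by limma and adjusted p, and edgeR called 719 of 23128 genes higher and 5311 lower. The members' median of -1.37 was close to the -1.29 of expressed nuclear genes. Among the 61 members with a mean of at least 200, 44 (72.1%) were lower, against 51.2% of expressed nuclear genes, of which 0.37% were higher. The 53 calls were 30 without EV-Dox replicate 2, 8 without EV-Dox replicate 3, 30 without EV-Veh replicate 1 and 0 without EV-Veh replicate 2, and EV-Dox replicate 3 and EV-Veh replicate 2 were the shallowest and the deepest libraries.

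With expressed-gene scaling, and on all 5 scalings, 12 members were lower in EV-Dox than in EV-Veh: NDUFB10, NDUFB11, NDUFV1, SDHB, UQCRC1, UQCRC2, UQCRQ, COX5A, ATP5A1, ATP5B, ATP5D and ATP5G1. That was 19.7% of the 61 members, against 17.5% of expressed nuclear genes on each rule (5.75% of all genes tested). Higher calls covered 20.9% of expressed nuclear genes and 44.1% of all genes tested with expressed-gene scaling, and 0.192% and 1.31% on all 5 scalings. The count was 5 without EV-Dox replicate 3 and 4 without EV-Veh replicate 2. The calls of ATP5D, ATP5G1, NDUFV1 and COX5A held with expressed-gene scaling whichever library was left out. How many other genes did so is not given here. ATP5D differed by -1.21 ± 0.24 (SE; limma, adjusted p = 0.00354), ATP5G1 by -0.85, COX5A by -0.64 and NDUFV1 by -0.57. NDUFB11, a membrane-arm subunit of complex I, had 461, 297 and 130.1 normalized reads in EV-Dox and 759.8, 1506 and 818 in EV-Veh, and differed by -1.90 on the deposited scale and -0.61 with expressed-gene scaling, where its call was lost without EV-Dox replicate 3 (-0.54) or EV-Veh replicate 2 (-0.64). The SDHB call of -0.52 was lost without the same libraries (-0.43 and -0.53). The 2 members higher with expressed-gene scaling were NDUFV2 (0.85) and COX6B2 (1.65), which averaged 69.9 and 11.6 normalized reads over the 12 libraries. The median difference of all genes tested was 1.05 on this scaling.

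The vector alone was not accompanied by a call. In TFEB-Veh against EV-Veh limma and edgeR called 0 of 77 members (0.0% of all genes tested and of expressed nuclear genes in either direction, on every scaling). At an unadjusted p under 0.05, limma found 0 members on the deposited scale and 2 higher with expressed-gene scaling, and edgeR found 5 lower. The members' median difference was -0.62 on the deposited scale and 0.04 with expressed-gene scaling.

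The difference between the lines in their response to doxycycline was tested as an interaction, TFEB-Dox minus TFEB-Veh set against EV-Dox minus EV-Veh. limma called 67 of 77 members positive and 0 negative on the deposited scale (71 and 0 at an unadjusted p under 0.05, and 67 and 0 by edgeR adjusted), against 29.2% and 6.15% of all genes tested. These shares are by limma and adjusted p, and edgeR called 6823 of 23128 genes positive and 1427 negative. Among the 61 members with a mean of at least 200, 56 (91.8%) were positive, against 62.6% of expressed nuclear genes, of which 0.0686% were negative. With expressed-gene scaling 25 were positive and 5 negative, where 31.1% and 29.9% of expressed nuclear genes (11.0% and 57.8% of all genes tested) were. On all 5 scalings 24 were positive and 0 negative. That was 22 of the 61 (36.1%), against 30.6% positive and 0.0412% negative among expressed nuclear genes and 10.8% and 2.86% of all genes tested. SDHB was highest at 4.87 ± 0.72 (SE; limma, adjusted p = 1.21e-06), or 2.84 with expressed-gene scaling, followed by NDUFB9 (4.33 and 2.29), NDUFS8 (3.54 and 1.50) and COX7A2L (3.49 and 1.45). The 5 negative with expressed-gene scaling were NDUFB5 (-0.71), NDUFV2 (-1.64), NDUFV3 (-0.82), SDHA (-0.60) and COX6B2 (-2.88), and without TFEB-Veh replicate 1 the 25 positive were 16.

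Among proteins that build the complexes, TMEM70, COX17, COX16, TIMMDC1 and ACN9 were higher in TFEB-Dox than in TFEB-Veh. Of 13 assembly factors of complex I, 2 were higher in TFEB-Dox than in TFEB-Veh on all 5 scalings, of 4 for complex II 1, of 5 for complex III 1, of 19 tested for complex IV 3 and of 3 for complex V 1, and none was lower by that rule. Over all genes tested 12.2% were higher by the same rule and 3.57% lower, and among expressed nuclear genes 28.0% and 2.59%. TMEM70, required to assemble the rotor of ATP synthase, had 987, 1231 and 1021 normalized reads in TFEB-Dox, 42.9, 83.6 and 88.4 in TFEB-Veh, 37.4, 28.5 and 18.8 in EV-Dox and 71.4, 132 and 81.4 in EV-Veh. It lay above all other libraries, by 3.96 against TFEB-Veh on the deposited scale and 3.21 with expressed-gene scaling. COX17, the copper chaperone of complex IV, had 1189, 2188 and 1616 in TFEB-Dox, 142, 302 and 313 in TFEB-Veh, 277, 184 and 151 in EV-Dox and 311, 528 and 234 in EV-Veh, a difference of 2.76 and 2.01. COX16 averaged 520.2 ± 129 in TFEB-Dox and 76.9 ± 18.8 in TFEB-Veh (2.74 and 1.996), with SD over n = 3 each. TIMMDC1, of the membrane arm of complex I, averaged 3056 ± 752 in TFEB-Dox and 594 ± 239 in TFEB-Veh (2.43 and 1.68). ACN9, also named SDHAF3 and known to help insert the iron-sulfur clusters of SDHB, had 1038, 834 and 675 in TFEB-Dox, 149.8, 227 and 208 in TFEB-Veh, 132, 117 and 41.3 in EV-Dox and 351, 529.6 and 197 in EV-Veh. Each TFEB-Dox value exceeded all others, by 2.12 against TFEB-Veh and 1.37 with expressed-gene scaling.

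The assembly factors called lower than in TFEB-Veh with expressed-gene scaling were 6 of 13 for complex I, 1 of 4 for complex II, 3 of 5 for complex III, 6 of 19 for complex IV and 1 of 3 for complex V. The same call was made for 20.7% of all genes tested and 33.2% of expressed nuclear genes. BCS1L and LYRM7, which bring in the Rieske protein UQCRFS1, were at -1.55 and -1.88 (limma, adjusted p = 2.04e-06 and 1.37e-06), against -0.80 and -1.13 on the deposited scale, where LYRM7 alone was called.

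Of 7 subunits outside the naming rule, NDUFAB1 (acyl carrier protein, a complex I subunit) was higher than in TFEB-Veh on all 5 scalings, with 964, 1594 and 1473 normalized reads in TFEB-Dox and 269, 524 and 598 in TFEB-Veh, and a difference of 1.58. CYC1, cytochrome c1 of complex III, averaged 414 ± 122 in TFEB-Dox and 367 ± 123 in TFEB-Veh (SD, n = 3 each) and was not called on the deposited scale. With expressed-gene scaling 1 of the 7 subunits was called lower than in TFEB-Veh. Of 10 regulators of respiratory genes, PPARGC1A was the 1 called higher on all 5 scalings, with 949, 1723 and 1130.1 in TFEB-Dox, 81.3, 62.7 and 57.6 in TFEB-Veh, 48.4, 65.4 and 76.2 in EV-Dox and 41.0, 33.7 and 65.9 in EV-Veh. NRF1 and TFAM were at 0.02 and 0.21 on the deposited scale and not called, and at -0.73 and -0.54 with expressed-gene scaling, where both were among the 4 of 10 called lower. The shares of all genes and of expressed nuclear genes given for the assembly factors apply to these counts too, 12.2% and 28.0% for higher calls on all 5 scalings and 20.7% and 33.2% for lower calls with expressed-gene scaling.

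The 13 mitochondrially encoded mRNAs of the same complexes differed by -0.13 to 0.68 between TFEB-Dox and TFEB-Veh on the deposited scale. limma and edgeR called 0 of them in either direction, and 0 passed at an unadjusted p under 0.05 by either. Of all genes tested limma called 17.4% higher and 4.66% lower there. With expressed-gene scaling the 13 lay between -0.88 and -0.07, and 1 was called lower (MT-ATP8 at -0.66). At an unadjusted p under 0.05 limma found 2 lower and 0 higher on that scaling. By adjusted p 14.4% of all genes tested were higher and 20.7% lower there. MT-CO1, the catalytic subunit of complex IV, averaged 417500.0 ± 18844 normalized reads in TFEB-Dox and 409570.0 ± 122400.0 in TFEB-Veh (SD, n = 3 each).

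The 2 members called against every control on all 5 scalings were also set beside their neighbours on the chromosome, a choice made after their values were seen. In RefSeq (GRCh38.p14) SDHB lies between ATP13A2 and PADI2, and NDUFS8 between ALDH3B1 and TCIRG1. On the deposited scale ATP13A2 differed by 2.86 and PADI2 by 3.02 between TFEB-Dox and TFEB-Veh, beside the 3.07 of SDHB. ALDH3B1 differed by 1.78 and TCIRG1, a subunit of the vacuolar proton pump, by 3.99, beside the 2.07 of NDUFS8. All 4 neighbours were called higher in TFEB-Dox than in TFEB-Veh on each of the 5 scalings. The same call was made for 12.2% of all genes tested and 28.0% of expressed nuclear genes. Against EV-Veh, ALDH3B1 was not called on the deposited scale (1.18; limma, adjusted p = 0.134). Whether reads of adjacent genes contributed was not tested, and the strand setting of the counting is not known here.

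Many subunits have processed pseudogenes, and 67 rows of other gene types carried matching names. Their reads cannot be told apart from those of the parent gene beyond what the counting allowed, which applies most to members with few reads. COX6A1P2 carries a pseudogene's name although it is typed as protein-coding, and differed by 0.65 from TFEB-Veh without passing the test.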

How the data were processed

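RNA from 12 cultures was sequenced after NuGEN Ovation FFPE library preparation, per the labels' protocols. The submitters' processing notes name STAR 2.5.3a and HTSeq 0.6.1; the build, the annotation and the strand setting were not given in these sources. The deposited table holds 1 signal value per gene and library, which is a read count divided by 1 factor per library: 100% of values came out as whole reads within 0.01 read. No column was left out. A step within 1% of 1 in 2 libraries left their values nearly raw.

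Values were tested as log2(value + 1) with limma 3.58.1 (R 4.3.3, mean-variance trend, all 12 libraries in 1 fit) over 23128 genes with a mean of at least 10, with Benjamini-Hochberg adjustment and a threshold of 0.05. A log2 difference on this scale understates the change of low genes. edgeR 4.0.16 (quasi-likelihood) was run on the recovered reads as an alternative and called 4171 genes higher and 1072 lower in TFEB-Dox against TFEB-Veh. Other alternatives were the scaling, the filter, the pseudocount, a replicate block, fits of the compared groups only and leaving out each library. Fits were tested on simulated data. Tables and plots used Python 3.11.15, pandas 2.3.3, numpy 2.4.6 and matplotlib 3.10.9. Promoter windows came from RefSeq (GRCh38.p14).

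Groups came from the titles. Members, lists and tests were chosen with earlier results of these data known. Per-library values are given for catalytic and core subunits, paralogs that replace each other, members called against each control on every scaling, and per complex up to 3 members with the largest called difference in TFEB-Dox against TFEB-Veh, in TFEB-Dox against EV-Dox and in EV-Dox against EV-Veh. Values of 1 member are not reported here. Values are not per length, so levels are not compared between genes. Library totals limit the precision of low genes.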

Additional observations from a re-analysis of the deposited data

Results flagged for a closer look

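For 24 members the response to doxycycline differed between the vectors by the interaction test on each of the 5 scalings (limma, adjusted p under 0.05), as it did for 10.8% of all genes tested and 30.6% of expressed nuclear genes in the same direction. The calls of 15 of these held on the deposited scale and with expressed-gene scaling whichever library was left out. How many other genes held in this way is not given here. With expressed-gene scaling the call was lost without any 1 of 9 libraries for COX6C, of 8 for NDUFA10 and ATP5L, of 7 for COX7A2, of 6 for UQCRFS1 and ATP5F1, of 3 for NDUFS1 and COX8A and of 2 for ATP5A1. The log2 interaction on the deposited scale, (TFEB-Dox minus TFEB-Veh) minus (EV-Dox minus EV-Veh), was as follows. In complex I it was 2.83 for NDUFA1, 2.503 for NDUFA10, 2.87 for NDUFB4, 4.33 for NDUFB9, 2.65 for NDUFS1, 2.90 for NDUFS6, 2.59 for NDUFS7 and 3.54 for NDUFS8. In complexes II and III it was 4.87 for SDHB, 3.005 for UQCRC1, 2.615 for UQCRFS1 and 3.42 for UQCRQ. In complex IV it was 2.69 for COX4I1, 3.06 for COX5A, 2.64 for COX6C, 2.80 for COX7A2, 3.49 for COX7A2L, 2.87 for COX7C and 3.14 for COX8A. In complex V it was 2.69 for ATP5A1, 2.55 for ATP5F1, 3.15 for ATP5H, 2.83 for ATP5I and 2.75 for ATP5L. The median of expressed nuclear genes was 2.04 on the same scale.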

How the results depend on the processing

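The calls counted in this section are those of members alone. The share of all genes called under each setting is not given here. The counts therefore do not tell a change in the members from a change in all genes. Leaving out 1 library at a time gave 10 to 38 members higher in TFEB-Dox than in TFEB-Veh (24 with all libraries), 40 to 70 than in EV-Dox (64), 1 to 14 than in EV-Veh and than in each control (7), 0 to 70 lower in EV-Dox than in EV-Veh (53) and 47 to 71 with a positive interaction (67). With expressed-gene scaling the ranges were 17 to 31 higher and 4 to 9 lower against TFEB-Veh, 28 to 35 and 4 to 8 against EV-Dox, 20 to 32 and 5 to 8 against EV-Veh, 14 to 27 and 2 to 2 against each control, 0 to 3 higher and 4 to 16 lower in EV-Dox than in EV-Veh, and 16 to 26 positive and 5 to 6 negative interactions.

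With equal totals, with expressed-gene scaling, and with a replicate block and expressed-gene scaling, in that order, lower calls against TFEB-Veh were 9, 7 and 9, higher calls against EV-Dox 33, 34 and 38, and lower ones 8, 7 and 7. Against EV-Veh higher calls were 16, 27 and 33 and lower ones 12, 6 and 9. Against each control they were 13, 22 and 31 higher and 4, 2 and 3 lower. In EV-Dox against EV-Veh they were 1, 2 and 3 higher and 22, 12 and 22 lower, and interactions were 27, 25 and 33 positive and 5, 5 and 5 negative. TMM scaling gave 13 higher calls against EV-Veh and 13 against each control, and equal upper quartiles 4 and 4. Fits of the compared groups only gave 47 higher against TFEB-Veh, 11 against EV-Veh and each control, and 14 lower in EV-Dox.

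Complex medians against TFEB-Veh were 0.12, 0.0895, -0.14, 0.22 and 0.0754 for complexes I to V with equal totals, and 0.23, 0.20, -0.025, 0.33 and 0.19 with expressed-gene scaling, with or without the replicate block. The signs of ATP5D (-0.79 and -0.68), ATP5G1 (-0.78 and -0.67), NDUFV1 (-0.63 and -0.52) and SDHA (-0.79 and -0.68) reversed with equal totals and with expressed-gene scaling, and that of ATP5G3 with equal totals (-0.51) and with the block and expressed-gene scaling (-0.40).

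Libraries were not treated as paired by replicate number, since not every same-number pair deviated together with r over 0.1: r lay between -0.60 and 0.69 with a median of 0.18, and 12 of 18 were over 0.1, against a median of -0.11 and 11 of 36 for pairs of other numbers. The replicate block gave 34 higher calls against TFEB-Veh, 67 against EV-Dox, 11 against EV-Veh and against each control, 60 lower in EV-Dox and 68 positive interactions. With shares taken over genes with a mean of at least 50, complex II took 326 in TFEB-Dox, 219 in TFEB-Veh and 224 in EV-Veh, complex IV 1026 in EV-Dox, complex V 2502 in EV-Dox and 2847 in EV-Veh, complexes I and III 2070.0 and 889 in EV-Veh, and all members 7271 in TFEB-Veh, 6567 in EV-Dox and 7177 in EV-Veh. The cause of these differences was not tested. Depth limits genes with few reads most, EV-Dox replicate 3 above all.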
